A study of Homo sapiens with 4 samples.

Results

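The genes described here are the hypoxia-inducible transcription factors HIF1A, EPAS1 and ARNT, their oxygen sensors EGLN1 and EGLN3, and 5 target genes that act outside glycolysis: CA9, CA12, BNIP3, NDRG1 and ADM. They were taken by name, and all 10 were among the 23394 genes of the count table. RNA was sequenced from SUM159 cells, a human breast cancer line of the triple-negative, mesenchymal-like kind, grown in serum with insulin and hydrocortisone. The 2 groups compared had 2 libraries each. The control cells had received DMSO, and the knockdown cells had received doxycycline, which induces a small interfering RNA against SHARP (SPEN), a transcriptional corepressor. The drug was given to the knockdown cells only, so drug and knockdown cannot be told apart. No source used here gives the oxygen level of the cultures or says whether control cells carried the inducible construct. The labels do not say that the replicates are separate cultures, so the p-values may reflect technical spread alone.

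HIF proteins work as pairs of an alpha subunit, HIF1A or EPAS1 (HIF-2 alpha), and the shared partner ARNT (HIF-1 beta). In oxygenated cells the prolyl hydroxylases EGLN1 (PHD2) and EGLN3 (PHD3) mark the alpha subunits for VHL-dependent destruction, so HIF activity is governed largely at the protein level, which RNA counts do not measure. When oxygen falls, the pair binds hypoxia response elements and raises genes for pH control (CA9, CA12), mitophagy and cell death (BNIP3), stress and differentiation (NDRG1) and vascular signalling (ADM). EGLN1 and EGLN3 are themselves HIF targets, which forms a feedback loop.

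The core of a hypoxia response element is ACGTG or GCGTG. Both were searched on both strands of the RefSeq promoter windows (GRCh38.p14, from 250 bases before to 50 bases after the start), which were found for 9 members, all but NDRG1. ACGTG was present for EGLN1, CA9 and BNIP3, against 26.4% of 10701 tested genes with a promoter window. GCGTG alone was present for HIF1A, EPAS1, CA12 and ADM, and neither core for ARNT and EGLN3, whereas 62.6% of those tested genes held at least 1 core. For each gene only the first listed promoter was searched, and HIF1A had 2 listed. A match describes these letters and is not evidence of binding. The stretches around the cores of the 3 genes with ACGTG and of ADM, which has 1 GCGTG, are shown. They were chosen because these genes rose (EGLN1), fell (BNIP3), were not called (ADM) or were too low to test (CA9). Each stretch is printed 5′ to 3′ on the strand of its gene, with every whole core in capitals (CACGT and CACGC are the cores on the other strand).

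EGLN1, chr1:231422288-231422347, minus strand: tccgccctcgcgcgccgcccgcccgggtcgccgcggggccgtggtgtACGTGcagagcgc
CA9, chr9:35673868-35673927, plus strand: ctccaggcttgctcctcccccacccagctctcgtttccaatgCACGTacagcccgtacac
BNIP3, chr10:131982024-131982083, minus strand: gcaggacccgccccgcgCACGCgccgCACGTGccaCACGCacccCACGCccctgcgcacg
ADM, chr11:10304945-10305004, plus strand: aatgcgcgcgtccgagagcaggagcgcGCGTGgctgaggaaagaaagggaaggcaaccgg

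Of the 3 genes with ACGTG, EGLN1 rose and BNIP3 fell, as the values below show. CA9 stayed near the detection limit in every library and was not tested, so its direction is not known. Over all tested genes with a window, ACGTG was present in 29.2% of those called higher, 26.0% of those called lower and 25.2% of those not called. BNIP3 had the most core matches, 6 over both strands, in a window with 80.7% G and C. Its 2 ACGTG matches are the same CACGTG read on both strands. The match at -104 runs past the end of the stretch shown and is not in capitals.

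Libraries held 15641296 to 17197715 counts, and SPEN, the targeted gene, was at 187 and 184 CPM in the controls and 107 and 108 CPM in the knockdown (CPM is the count divided by the TMM-scaled library size and brought to a common library size, here and below). In these libraries 3 counts, taken as the floor of detection, equal 0.172 to 0.195 CPM. Of the line's markers, the mesenchymal gene VIM was at 3257 CPM in the controls and rose to 5019.9 CPM (log2 fold change 0.62), and SPARC (0.53), AXL (0.41) and CD44 (0.15) rose as well. CDH1 had 0 counts in all libraries and ESR1 1 to 3 per library, while ERBB2 was at 89.8 CPM in the controls and fell to 73.8 CPM. Leukocyte markers summed to 6.77 to 7.27 CPM in the controls and 6.15 to 10.3 CPM in the knockdown. ITGAM, one of them, had 0 counts in both controls and 10 and 19 in the knockdown. Endothelial markers, listed because endothelium expresses EPAS1 and ADM, summed to 9.92 and 10.97 CPM in the controls and 15.1 and 15.9 CPM in the knockdown, mostly from ERG, with CDH5 at 0 or 1 count. The part of these markers in the results was not tested, and in bulk RNA fewer cells of a type cannot be told apart from less RNA per cell.

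Of the 10 members, 9 had enough counts to be tested, and 5 rose and 2 fell in the knockdown (edgeR quasi-likelihood test, Benjamini-Hochberg adjusted over 13915 genes, called under 0.05). Of all tested genes, 50.1% were called, 25.1% higher and 24.9% lower, so being called sets no member apart. The median log2 fold change was 0.43 for the 9 tested members and 0.0012 for all tested genes, and the median size without sign was 0.46 and 0.22. The members did not move in one direction: HIF1A, EPAS1, EGLN1, CA12 and NDRG1 rose, ARNT and BNIP3 fell, and EGLN3 and ADM were not called. HIF1A and EGLN1 changed by at least 2-fold, as did 4.15% of tested genes, and ARNT fell just short of that size. Tested against a fold change of 1.2, 5 members were still called, HIF1A, EPAS1, EGLN1, NDRG1 and ARNT, where 18.1% of all tested genes were called.

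**Figure D1:**
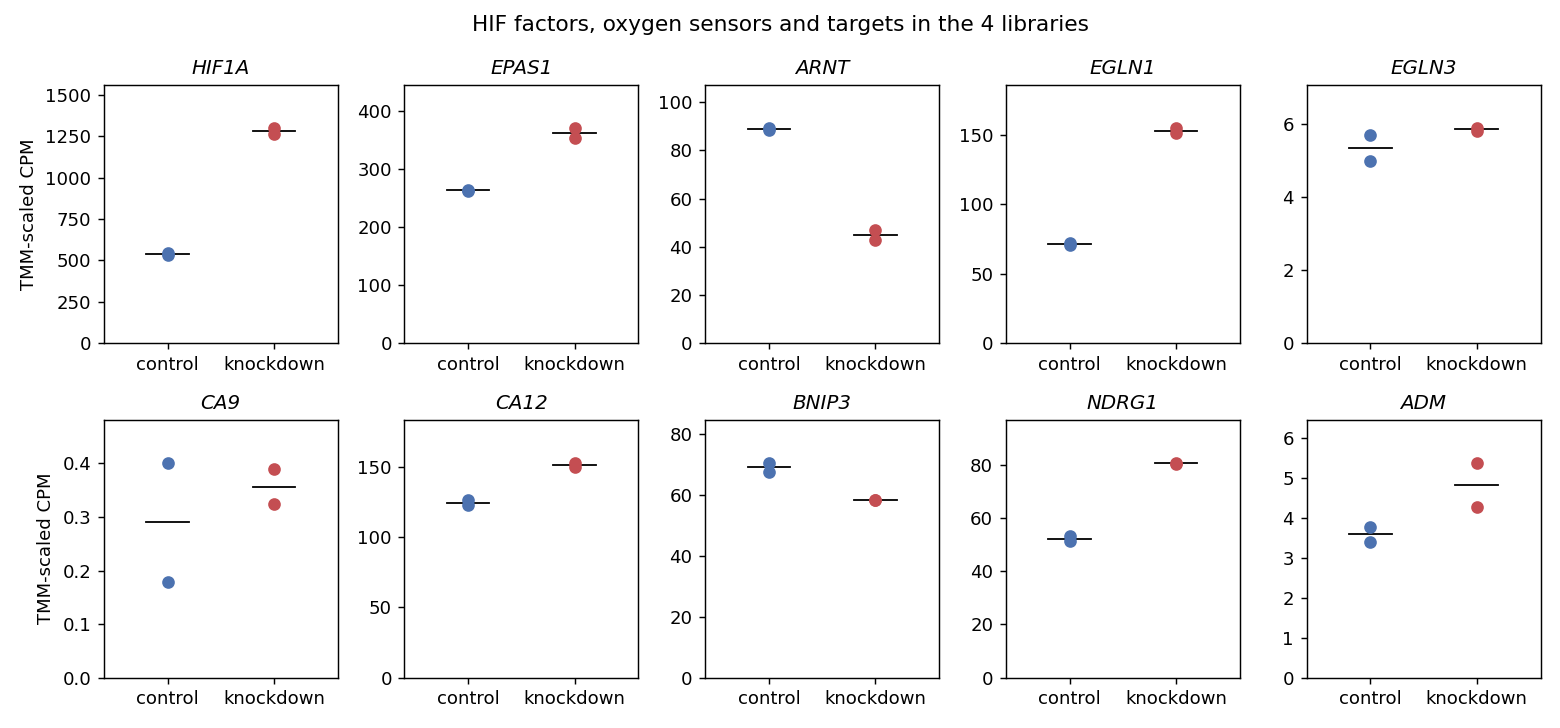
TMM-scaled CPM (vertical axes, each starting at 0) of the 10 member genes in the 2 control libraries (blue) and 2 knockdown libraries (red), with a black line at each group's mean. HIF1A and EGLN1 lie at more than 2 times the control level in both knockdown libraries, ARNT at about 0.506 of it, and CA9 stays under 0.41 CPM throughout.

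The alpha subunits rose while their shared partner fell. HIF1A, the most abundant member, measured 544 and 533 CPM in control cells, against 1300.1 and 1266 CPM after knockdown. Both knockdown libraries lay far above both controls, and the replicates of a group were close together. The mean went from 539 ± 7.53 to 1283 ± 24.0 CPM (SD, n = 2 each), a log2 fold change of 1.25 (SE 0.022, edgeR adjusted p = 3.29e-15). A larger change without regard to sign was found for 2.45% of tested genes.

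EPAS1 moved the same way by less. It was at 263 CPM in both controls and at 371 and 353 CPM in the knockdown, with no overlap of the groups. The rise was 1.38-fold (95% interval 1.32 to 1.43, log2 fold change 0.46, edgeR adjusted p = 2.82e-09), and 20.9% of tested genes changed by more.

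ARNT, which both alpha subunits need to bind DNA, was at 89.4 and 88.5 CPM in the controls and 42.9 and 47.0 CPM in the knockdown. The knockdown libraries differed from each other more than the controls did, but both lay well below them. The knockdown kept 0.506 of the control level (95% interval 0.468 to 0.547), with a log2 fold change of -0.98 (SE 0.052) and an edgeR adjusted p of 9.32e-10. Its relative ARNT2 was low, at 1.97 and 2.29 CPM in the controls and 1.62 and 1.43 CPM in the knockdown. ARNT2 did not pass the test (log2 fold change -0.48, 95% interval -1.07 to 0.10, edgeR adjusted p = 0.158). HIF3A, the third alpha subunit, had 2 to 6 counts per library and was not tested.

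Within a library, HIF1A gave 6.09 and 6.02 counts per ARNT count in the controls, against 30.3 and 26.9 after knockdown. EPAS1 counts per ARNT count went from 2.94 and 2.97 to 8.64 and 7.51. HIF1A counts per EPAS1 count went from 2.07 and 2.03 to 3.50 and 3.59. The balance of alpha subunit to partner transcripts therefore differed between the groups in every library, by more than the replicates differed. These ratios do not depend on the scaling of libraries, and they compare libraries for 1 pair of genes, not the amounts of the 2 transcripts.

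**Figure D2:**
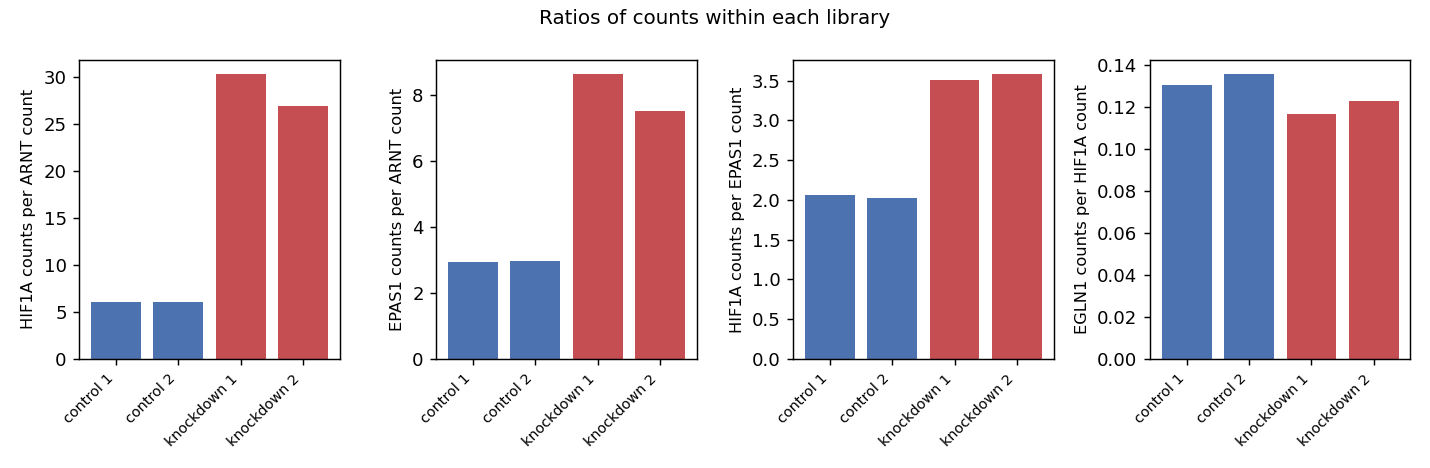
Ratios of counts within each library (vertical axes from 0) for the 2 control (blue) and 2 knockdown (red) libraries. HIF1A per ARNT is near 6.06 in the controls and 28.6 on average in the knockdown, EPAS1 per ARNT 2.96 and 8.07, HIF1A per EPAS1 2.05 and 3.55, and EGLN1 per HIF1A 0.133 and 0.120.

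HIF1A-AS2, a noncoding RNA transcribed antisense to the 3′ end of HIF1A, was named because its gene overlaps HIF1A in RefSeq. It was at 107 and 110 CPM in the controls and 284 and 272 CPM in the knockdown (log2 fold change 1.36, SE 0.033, edgeR adjusted p = 1.52e-13). No source used here says whether counting used strand, so reads of HIF1A and of HIF1A-AS2 cannot be told apart where the genes overlap. In GENCODE 29, exons overlapping those of HIF1A were found for HIF1A-AS1 (opposite strand, 117 bases) and AL137129.1 (same strand, 148 bases). None was found there under the name HIF1A-AS2. There were 0.197 and 0.206 HIF1A-AS2 counts per HIF1A count in the controls, against 0.218 and 0.215 after knockdown, so the counts of the genes kept nearly the same ratio.

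The sequence GAAAGAA was searched in the longest annotated 3′ UTR of each gene (GENCODE 29, GRCh38) because it had been linked to lower expression in these same libraries, so its presence in a gene that fell is not independent evidence. Among the members, only the 3′ UTRs of ARNT and EGLN3 held it, with 2 occurrences each. It was present in 32.5% of tested genes called lower, 22.1% of those called higher and 22.5% of those not called. A longer 3′ UTR has more places for a match, and lengths were not compared between these classes. The 4 occurrences are printed 5′ to 3′ with the heptamer in capitals, because ARNT had the largest fall among the members and EGLN3, with as many occurrences, was not called.

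ARNT, base 368 of the 3′ UTR: gcttgtttttgGAAAGAAattctgaagag
ARNT, base 503 of the 3′ UTR: cagtccctctgGAAAGAAacatgtgagta
EGLN3, base 621 of the 3′ UTR: aagcacctccaGAAAGAAaccgggttttt
EGLN3, base 1704 of the 3′ UTR: ttagggtaaggGAAAGAAagatcctgtag

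BNIP3, the other member that fell, had 0 occurrences in a 3′ UTR of 2069 bases. The part of this sequence in the changes was not tested.

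The oxygen sensors differed from one another. EGLN1, the main HIF prolyl hydroxylase in oxygenated cells, was at 70.8 and 72.3 CPM in the controls and 151 and 155 CPM in the knockdown. All knockdown values lay above all control values, with a 2.14-fold rise (95% interval 2.01 to 2.28, log2 fold change 1.10, SE 0.043, edgeR adjusted p = 3.31e-11). Only 3.49% of tested genes changed by more. Relative to HIF1A it changed little, with 0.130 and 0.136 EGLN1 counts per HIF1A count in the controls, against 0.116 and 0.123 after knockdown.

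EGLN3, a hydroxylase known for strong induction by hypoxia, was low, at 5.72 and 4.99 CPM in the controls and 5.83 and 5.90 CPM in the knockdown. The knockdown values lay only just above the higher control. The log2 fold change was 0.13 (95% interval -0.19 to 0.46, edgeR adjusted p = 0.501), which at this depth leaves room for a change of up to 1.37-fold upward. EGLN2 (PHD1), the third sensor, was at 45.5 and 38.8 CPM in the controls and 37.1 and 38.9 CPM in the knockdown, and the groups overlapped. It was not called (log2 fold change -0.15, edgeR adjusted p = 0.0750), but 4 of 14 other settings called it lower, among them leaving out control replicate 2 (adjusted p = 0.0210, range over settings 0.0210 to 1).

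Of 19 other tested genes that control HIF stability or activity, 5 rose, 4 fell and 10 were not called, with a median log2 fold change of -0.032. Over all tested genes, 25.1% were called higher and 24.9% lower. CITED2, which competes with HIF for the coactivators EP300 and CREBBP, had the largest change, from 47.9 and 49.8 CPM to 181 and 172 CPM (log2 fold change 1.85, SE 0.048, edgeR adjusted p = 2.77e-13). SENP1, a SUMO protease that acts on HIF1A, fell from 69.4 to 46.5 CPM (log2 fold change -0.58). OS9, reported to bind HIF1A and the hydroxylases, fell by 0.34 on the log2 scale. VHL, the ubiquitin ligase subunit that recognises hydroxylated HIF, was at 143 and 135 CPM in the controls and 149 and 142 CPM in the knockdown. VHL was not called (log2 fold change 0.070, 95% interval -0.017 to 0.16), nor was HIF1AN, the asparagine hydroxylase FIH (log2 fold change 0.062, 95% interval -0.041 to 0.17). Both intervals lie under a 1.2-fold change, but they cover only the spread between these libraries.

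**Figure D3:**
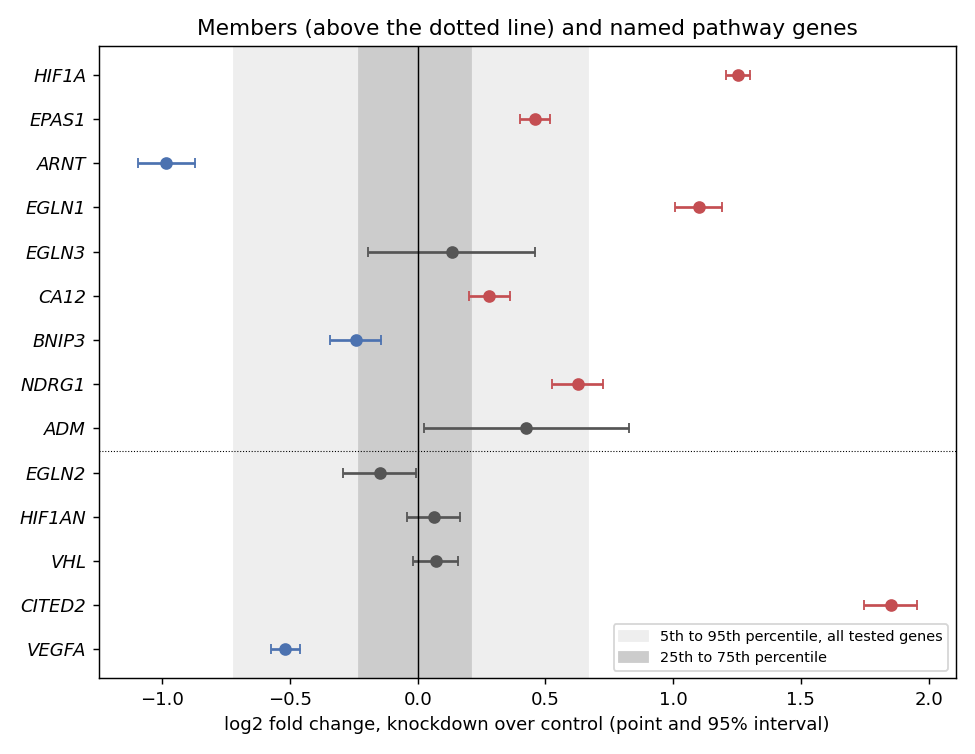
Log2 fold change of knockdown over control (horizontal axis) with its 95% interval for the 9 tested members, above the dotted line, and 5 named pathway genes. Red points are called higher, blue lower and grey not called, and the bands show the spread of all tested genes, whose 5th and 95th percentiles are -0.72 and 0.67. HIF1A, EGLN1, CITED2 and ARNT lie outside the wider band.

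The 4 tested targets changed less than HIF1A and EGLN1 and not in one direction, and CA9 was too low to test. CA9, the tumour-associated carbonic anhydrase that is among the most hypoxia-responsive genes known, gave 3 and 7 counts in control cells, against 5 and 6 after knockdown. All libraries lay between 0.179 and 0.401 CPM, near the floor, and the groups overlapped. Summed over a group the counts were 10 (exact Poisson 95% interval 4.80 to 18.4) and 11 (5.49 to 19.7), intervals that cover counting error only. CA9 was under the minimum count and not tested. Without that filter its log2 fold change was 0.28 with a 95% interval of -1.19 to 1.76. At this depth a rise or a fall within that interval cannot be told from no change.

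CA12, a membrane carbonic anhydrase also regulated by estrogen receptor in luminal cells, was at 126 and 123 CPM in the controls and 153 and 150 CPM in the knockdown. The groups did not overlap, and the rise was 1.21-fold (95% interval 1.15 to 1.28, edgeR adjusted p = 1.61e-05). A larger change was found for 39.8% of tested genes, and CA12 was not called against a fold of 1.2. Other carbonic anhydrases moved both ways. Of 6 tested, CA13 (0.57) and CA2 (0.88) rose, and the mitochondrial CA5B (-0.54) and CA11 (-0.65) fell on the log2 scale. CA3 and CA14 were not called. The shares over all tested genes were 25.1% higher and 24.9% lower.

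BNIP3, a mitochondrial outer membrane protein that recruits autophagosomes, was at 67.7 and 70.6 CPM in the controls and 58.5 and 58.4 CPM in the knockdown. Both knockdown libraries lay below both controls. The level was 0.845 of the control (95% interval 0.789 to 0.906, log2 fold change -0.24, edgeR adjusted p = 5.17e-04), a fall that was not called against a fold of 1.2. GENCODE lists 39 pseudogenes named after BNIP3, which leaves the assignment of reads among these copies uncertain. Its paralog BNIP3L (NIX), also a mitophagy receptor and HIF target, fell from 162 ± 2.59 to 128.5 ± 6.995 CPM (log2 fold change -0.34). Of 14 tested genes listed for mitophagy other than BNIP3, with BNIP3L counted again, 4 rose and 5 fell. The shares over all tested genes were 25.1% higher and 24.9% lower. Among the 14 were the autophagy receptor SQSTM1 (-0.37) and PHB2, an inner membrane mitophagy receptor (0.23, a rise). BNIP2 (-0.63), which shares the BNIP name and is not an established mitophagy gene, was counted with them here and below.

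NDRG1, a stress-responsive gene linked to suppression of metastasis, had the largest change among the 4 tested targets. It was at 51.3 and 53.0 CPM in the controls and 80.4 and 80.7 CPM in the knockdown, with tight replicates and no overlap. The rise was 1.54-fold (95% interval 1.44 to 1.65, log2 fold change 0.63, SE 0.047, edgeR adjusted p = 4.06e-08), and 12.2% of tested genes changed by more. In its family, NDRG3, which is itself a substrate of EGLN1, rose from 31.3 ± 0.491 to 43.4 ± 1.44 CPM (log2 fold change 0.47). NDRG4 was not called (-0.25, 95% interval -0.74 to 0.25), and NDRG2 had 1 count in all.

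ADM, the vasodilator peptide adrenomedullin, was low, with 57 and 66 counts in control cells, against 66 and 83 after knockdown. That corresponds to 3.40 and 3.78 CPM against 4.27 and 5.39 CPM, with the knockdown libraries higher but further apart. It was not called (log2 fold change 0.43, 95% interval 0.025 to 0.83, edgeR adjusted p = 0.0732). Without knockdown replicate 1 its adjusted p was 0.0271 (range over settings 0.0271 to 0.412). Of the genes that make or receive the peptide, PAM, the amidating enzyme that activates it, rose (log2 fold change 0.36). RAMP1, a partner of CALCRL but not one of the adrenomedullin partners named below, fell (-0.67). The receptor CALCRL gave 6 and 9 counts in control cells, against 14 and 23 after knockdown (log2 fold change 1.44, edgeR adjusted p = 0.0122). That call was lost under 6 of 13 settings, with adjusted p up to 0.230 when knockdown replicate 2 was left out. RAMP2 and RAMP3, the partners that give CALCRL its affinity for adrenomedullin, had 0 counts in all libraries. ADM2 was not called (-0.20), and CXCR7, a decoy receptor, had 1 count in each library.

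Per kilobase of exon, the order of levels in the controls was HIF1A (127 ± 1.77 CPM per kb), EPAS1 (50.9 ± 0.0365), BNIP3 (24.2 ± 0.721), CA12 (19.4 ± 0.367), ARNT (18.0 ± 0.120), NDRG1 (13.9 ± 0.332), EGLN1 (10.1 ± 0.153), ADM (1.32 ± 0.100), EGLN3 (1.10 ± 0.107) and CA9 (0.179 ± 0.0972). In the knockdown HIF1A reached 301 ± 5.65 and EPAS1 70.1 ± 2.44 CPM per kb. ARNT, at 9.10 ± 0.589 CPM per kb, had moved below EGLN1 (21.6 ± 0.395) and NDRG1 (21.4 ± 0.0700), whose values overlapped. BNIP3, next after EPAS1 in the controls, was at 20.4 ± 0.0162 CPM per kb and had moved below CA12 (23.6 ± 0.349), EGLN1 and NDRG1. Among the controls no neighbours in this order overlapped. Exon lengths come from a GRCh38 annotation and the counts from GRCh37, so these levels are approximate.

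Other HIF target genes outside glycolysis moved both ways. Of 44 tested, 17 rose, 15 fell and 12 were not called, beside 25.1% higher and 24.9% lower over all tested genes, and their median log2 fold change was 0.0044. Against a fold of 1.2 the counts were 11 higher and 5 lower, where 18.1% of all tested genes were called in either direction. The 3 genes called with at least a 2-fold change, STC1, EDN1 and the repressor BHLHE41, were all higher. Of all tested genes, 4.15% were called at that size in either direction. VEGFA, the angiogenic growth factor and a classic target, fell from 291 and 285 CPM to 200.4 and 202 CPM (log2 fold change -0.52, SE 0.027, edgeR adjusted p = 6.32e-10). The 3 genes called higher with the smallest adjusted p were the secreted glycoprotein STC1 (2.50 and 2.06 to 14.9 and 14.1 CPM), the vasoconstrictor EDN1 (11.6 and 12.04 to 34.6 and 35.6 CPM) and the glycogen branching enzyme GBE1 (134 in both to 231 and 229 CPM). Their log2 fold changes were 2.66, 1.57 and 0.78.

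Among 20 glycolytic HIF targets, 11 rose, 1 fell and 8 were not called, with a median of 0.11, beside the same 25.1% higher and 24.9% lower over all tested genes. The enolase ENO1 (0.53), the phosphofructokinase PFKP (0.66) and the glucose transporter SLC2A3 (0.71) rose. The transporter SLC2A1 (GLUT1) was the one that fell, from 124 ± 1.19 to 68.4 ± 0.978 CPM. The difference between the glycolytic genes and the other targets was not tested.

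**Figure D4:**
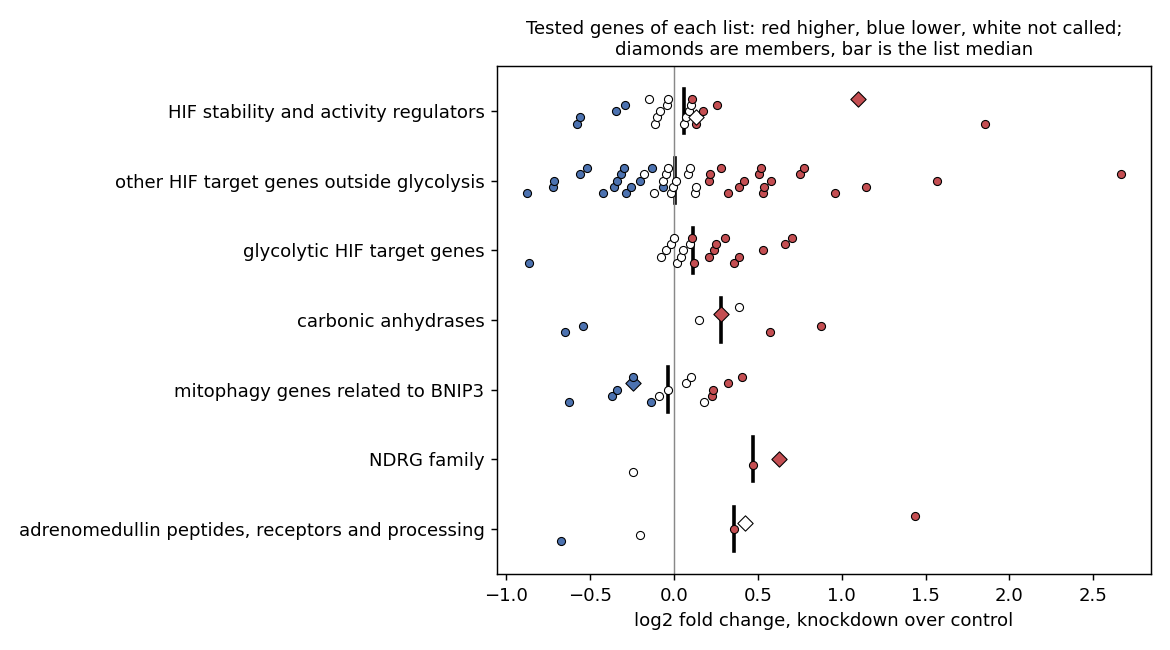
Log2 fold change of knockdown over control (horizontal axis) for each tested gene of 7 lists, with red points called higher, blue lower and white not called, diamonds for member genes and a black bar at each list's median. The 44 other non-glycolytic targets spread on both sides of 0 around a median of 0.0044, and the glycolytic targets have 11 red points and 1 blue.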

How the data were processed

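Per the labels, RNA of 4 libraries was sequenced. The values the authors deposited are estimated counts by gene symbol, without normalisation and mostly whole. The submitters' processing notes name STAR and GRCh37. No source used here names the counting program, its annotation or its strand setting. All 4 columns matched a sample by name, and 0 were unused. Counts were rounded. Values more than 0.01 from a whole number were taken as fractional, which 591 of 23394 genes and 0 members had. Each gene was tested with edgeR 4.0.16 (glmQLFit and glmQLFTest, two-sided, under R 4.3.3) after TMM scaling and filterByExpr (minimum count 10), on 13915 genes, and called at an adjusted p under 0.05. Floors and Poisson intervals cover counting error only, and it is not known here whether amplified reads carried molecular identifiers.

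The members and lists were chosen with earlier results of these data known. Named are all members, SPEN, EGLN2, HIF1AN, VHL and VEGFA, every gene of lists with up to 6 measured genes, and otherwise up to 4 called genes per list with the smallest adjusted p. HIF1A-AS2, CA2, CA3, CA14, BHLHE41 and the marker genes were named after their values were seen. Alternatives were 3 other scalings (RLE, upper quartile, library size), other low-count filters, DESeq2 1.42.0, voom from limma 3.58.1, a block for replicate number, leaving out single libraries, glmTreat at 1.2-fold and an adjusted p under 0.01. Promoters came from RefSeq (GRCh38.p14) and exons and 3′ UTRs from GENCODE 29 (GRCh38), matched by symbol or by a RefSeq synonym that names 1 gene.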

Additional observations from a re-analysis of the deposited data

How the results depend on the processing

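HIF1A, EPAS1, ARNT, EGLN1 and NDRG1 kept their direction and their call under all 14 settings, with log2 fold changes of 1.21 to 1.27, 0.41 to 0.50, -1.05 to -0.92, 1.05 to 1.12 and 0.58 to 0.65. CA12 (0.24 to 0.30) and BNIP3 (-0.29 to -0.22) lost their call only against a fold of 1.2 (adjusted p = 0.414 and 0.857). EGLN3 was called under none (0.032 to 0.23), and ADM only without knockdown replicate 1. None of the named genes refitted under these settings changed direction (CA2, CA3, CA14, BHLHE41, the marker genes and the list medians were not refitted). The median log2 fold change of all tested genes lay between -0.044 (library-size scaling) and 0.013 (no low-count filter), and was below 0 also with upper-quartile scaling (-0.0085) and without control replicate 1, knockdown replicate 1 or knockdown replicate 2. VHL was called higher only without knockdown replicate 2 (0.11). BNIP3L and PHB2 also lost their call against a fold of 1.2 (adjusted p = 0.0604 and 1), and CALCRL lost it without the low-count filter, in DESeq2, without either control or knockdown replicate 2, and at an adjusted p under 0.01. Against a fold of 1.2, calls fell to 1216 higher and 1305 lower over all genes, to 1 member lower, to 1 regulator higher, to 11 higher and 5 lower among the other non-glycolytic targets, to 6 glycolytic targets higher, and to 0 higher and 2 lower among the mitophagy genes, a stricter question by construction. Library-size scaling gave 7 regulators and 3 glycolytic genes lower. DESeq2 gave 2 mitophagy genes higher, and leaving out 1 library gave 2 (without control replicate 1) to 4. The cause of these shifts was not tested. With the replicate block, 3609 genes were higher and 3602 lower, 7 regulators were lower, EGLN2 was called (-0.15, adjusted p = 0.0414) and the member counts were still 5 and 2. Same-numbered deviations correlated at 0.191 over genes with 2 pairs, and the labels do not say that the numbers pair the samples. Low counts limit CA9 and HIF3A, which could not be tested, and widen the intervals of EGLN3, ADM, ARNT2, NDRG4 and CALCRL.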
